A study of Rattus norvegicus with 6 samples.

Results

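The insulin-like growth factor (IGF) system genes examined here were 10 genes of the rat pituitary: the ligands Igf1 and Igf2, the receptors Igf1r and Igf2r, and the binding proteins Igfbp2, Igfbp3, Igfbp4, Igfbp5, Igfbp6 and Igfbp7. They were taken by gene symbol from 33294 symbols in the count tables. All 10 were among the 17292 genes that passed the filter on low counts, and none entered only through the group in which it was higher, since the smallest count of any of them in any library was 354.

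IGF1 and IGF2 are small secreted peptides related to insulin. Both signal through the type 1 receptor, a tyrosine kinase that acts through insulin receptor substrates, phosphoinositide 3-kinase, AKT and mTOR and through the RAS and MAP kinase cascade, whereas the IGF2 receptor carries IGF2 to lysosomes for degradation. The binding proteins hold the peptides outside the cell and set how much of them reaches the receptors. In the pituitary, growth hormone from somatotrophs drives IGF1 production in liver and other tissues, and IGF1 in turn restrains growth hormone release.

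RNA was sequenced from whole pituitary glands of male Sprague-Dawley offspring aged 11 weeks, with 1 library per rat. The nicotine group was 3 sons of dams that received nicotine tartrate at 6 mg/kg per day from an osmotic mini-pump set under the skin during pregnancy, and the control group was 3 sons of dams whose pump held sterile saline. The pumps were of a type that runs past the day of birth, and the study does not say whether they were then removed. No allele or further agent separates the groups. Nothing in the labels says whether the rats of a group came from separate litters, so p-values measure the spread between these samples only.

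Library totals ran from 46239801 to 85977002 counts in the nicotine group and from 28318383 to 54309256 in the control group. A listing of read numbers that accompanies the study gives the larger libraries, on average, to the control group, whereas in the deposited counts the nicotine libraries are on average the larger. Each library labelled nicotine holds more counts than that listing gives reads for its number in the nicotine group, and each total is nearer to the entry of the same number in the other group. For nicotine replicate 1, the deposited library identifier also belongs to the nicotine group in that listing. What differs there is the read number beside the identifier. Whether the deposited counts or the listed read numbers are exchanged between the groups cannot be told apart here. The groups were taken from the sample labels, and every direction given below would turn round if the deposited counts were the ones exchanged. Nicotine replicate 2 stood apart from the rest, with a mean distance of 90.8 to the other libraries in log2 expression over all genes tested, against 72.0 to 80.7 for the others. The extraction text of the labels describes testis, but the libraries carried pituitary RNA: Gh1 (growth hormone) stood at 52429 to 115788 CPM (a gene's counts scaled to a fixed library total), Pomc (the corticotropin precursor) at 20412 to 71827 CPM and Prl (prolactin, chosen after its values were seen) at 17547 to 38038 CPM, while 10 germ cell markers summed to 0.0496 to 0.212 CPM and Tnp2, Ddx4, Sycp1 and Acrv1 had 0 counts in every library.

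RefSeq sequence upstream of the annotated start was matched for 10 of 10 genes, in 11 windows because Igf2 has more than 1 start. The 250 bases before the start are shown for the 3 genes whose libraries did not overlap between the groups (Igfbp2, Igfbp4 and Igfbp6), since it is these genes that carry the comparison below. Coordinates are of the GRCr8 assembly, which is not the rn7 build the counts were made on. Capitals mark TATAAA, the core letters of a TATA box, or GGGCGG, the core of a GC box, on either strand.
Igfbp2, chr9:81864561-81864810, strand +: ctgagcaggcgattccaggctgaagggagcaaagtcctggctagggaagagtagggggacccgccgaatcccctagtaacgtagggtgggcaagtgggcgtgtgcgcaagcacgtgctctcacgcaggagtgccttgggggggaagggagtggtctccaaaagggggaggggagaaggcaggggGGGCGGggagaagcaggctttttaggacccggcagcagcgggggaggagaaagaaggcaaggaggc
Igfbp4, chr10:84491221-84491470, strand +: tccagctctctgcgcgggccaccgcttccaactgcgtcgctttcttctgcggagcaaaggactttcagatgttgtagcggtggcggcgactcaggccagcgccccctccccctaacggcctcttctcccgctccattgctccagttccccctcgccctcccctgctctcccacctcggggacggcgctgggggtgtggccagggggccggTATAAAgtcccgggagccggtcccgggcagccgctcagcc
Igfbp6, chr7:135154669-135154918, strand +: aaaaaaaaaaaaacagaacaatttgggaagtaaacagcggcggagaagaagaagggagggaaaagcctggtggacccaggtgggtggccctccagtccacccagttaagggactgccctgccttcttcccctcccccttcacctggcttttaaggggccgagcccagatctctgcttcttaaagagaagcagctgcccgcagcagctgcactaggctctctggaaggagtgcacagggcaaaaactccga

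The 3 windows had little in common. That of Igfbp4 held 1 TATAAA, that of Igfbp2 held 1 GGGCGG and that of Igfbp6 held neither. Among 33469 windows of the same length, 12.9% held TATAAA and 30.5% held GGGCGG. The Igfbp4 window had 21 CpG dinucleotides and a GC content of 68.8%, the Igfbp2 window 11 and 64.0%, and the Igfbp6 window 5 and 54.8%. The median over all windows was 5 CpG dinucleotides, with quartiles of 2 and 15, so that of Igfbp4 lay above the upper quartile and that of Igfbp6 at the median. DNA methylation was not analysed here.

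The question of the comparison was whether expression in the adult pituitary differed between sons of nicotine-treated and of saline-treated dams. Levels are CPM after scaling of the library sizes by TMM, a method that evens out differences in composition. They are compared between libraries for 1 gene at a time and not between genes, because transcript lengths were not used here. A gene was called when its Benjamini-Hochberg adjusted p was under 0.1 and its fold change over 1.5, the thresholds of the study, with edgeR's quasi-likelihood test as the main test and DESeq2 as the alternative.

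Igfbp4 and Igfbp2 stood at about 2 times the control mean in the nicotine group, and Igfbp6 stood at 0.402 of it. The ligands, the receptors, Igfbp5 and Igfbp7 had ratios of group means between 0.927 and 1.19, and Igfbp3 lay between at 1.504. edgeR called 0 of the 10 genes, as it called 0% of the 17292 genes tested. DESeq2 called 2 of the 10, Igfbp4 (higher) and Igfbp6 (lower), where it called 0.339% of 18001 genes. At an unadjusted p under 0.05 edgeR had 3 of the 10, Igfbp2 and Igfbp4 higher and Igfbp6 lower, against 6.14% of all genes. These were also the 3 genes whose groups had no overlapping libraries, against 11.3% of all genes. Igfbp4 and Igfbp6 are also on the study's own list of differentially expressed genes, which was drawn up with DESeq2 on these libraries. Their DESeq2 calls, edgeR p-values and lack of overlap here are therefore not independent evidence. The median log2 fold change of the 10 genes was 0.13, with 7 higher and 3 lower, and that of all genes tested was 0.01. In whole tissue, fewer cells of a type and less RNA per cell cannot be told apart.

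**Figure D1:**
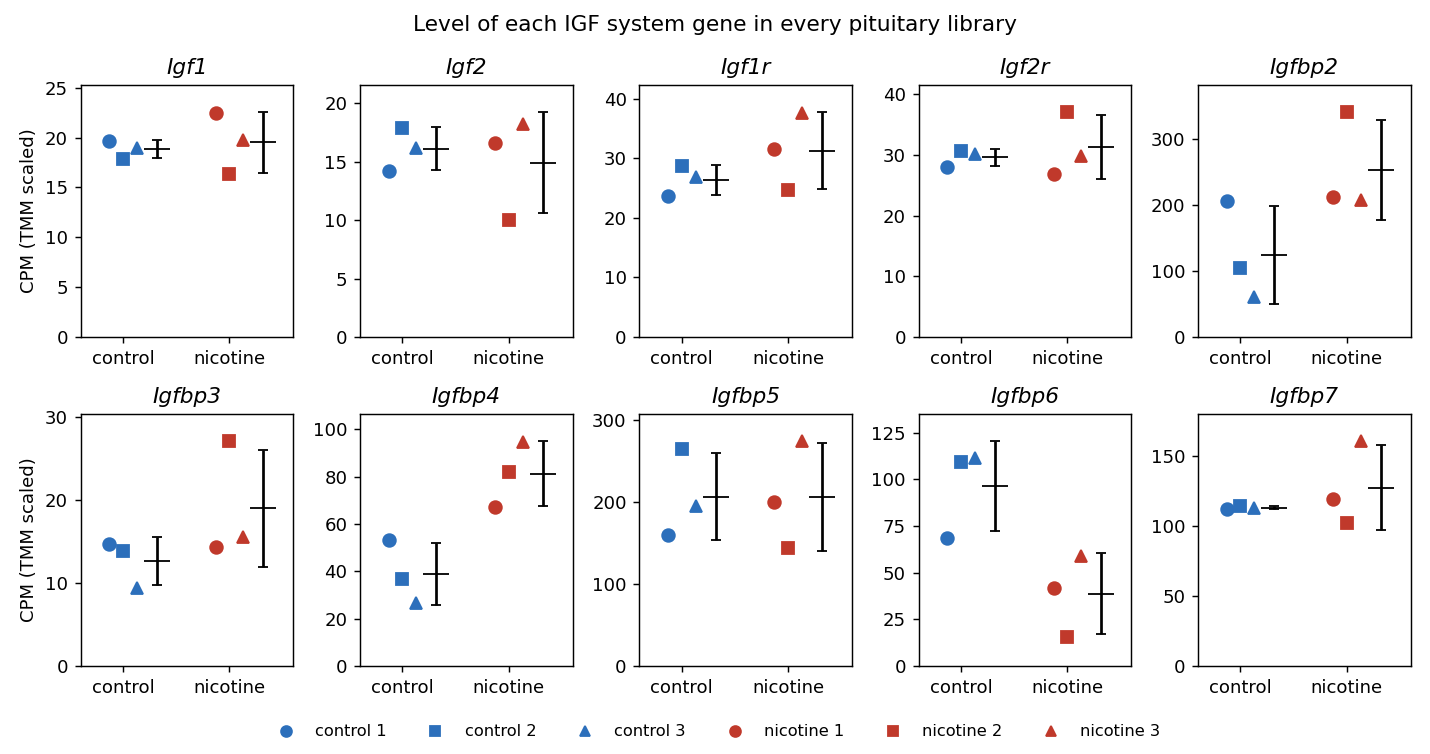
Level of each of the 10 genes in every library, in CPM after TMM scaling on a linear axis that starts at 0. Symbols are single libraries, and the bars beside them are the mean and SD of 3 libraries. Igfbp2, Igfbp4 and Igfbp6 are the genes without overlap between the groups, and for Igfbp2 the gap was between 208 and 206 CPM.

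The ligands were present in every library and did not separate the groups. Igf1 stood at 22.4, 16.3 and 19.7 CPM in nicotine replicates 1, 2 and 3 and at 19.6, 17.9 and 18.9 CPM in control replicates 1, 2 and 3. The control values lay inside the range of the nicotine values. Between the groups the log2 fold change was 0.05 (standard error 0.18, 95% interval -0.34 to 0.44), with an adjusted p of 0.966 in edgeR's quasi-likelihood test. The highest library was 1.37 times the lowest, less than the 1.70 of the median gene, and the spread of Igf1 within groups was at the 20.4th percentile of all genes tested.

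Igf2, the fetal growth factor that is imprinted and is expressed from the paternal allele in most tissues, stood at 16.6, 10.02 and 18.2 CPM in the nicotine libraries and at 14.3, 17.9 and 16.2 CPM in the control libraries. Nicotine replicate 2 was the lowest of all and the other libraries lay close together. The log2 fold change was -0.12 (standard error 0.23, 95% interval -0.63 to 0.40), with an adjusted p of 0.934 in edgeR's quasi-likelihood test. Without nicotine replicate 2 it was 0.10, so the direction rested on that library. The interval for Igf1 leaves out a fold change of 1.5 in both directions, while that for Igf2 leaves it out for an increase only.

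The receptors also overlapped between the groups. Igf1r, the signaling receptor, stood at 31.5, 24.7 and 37.6 CPM in the nicotine libraries and at 23.6, 28.7 and 26.9 CPM in the control libraries. Nicotine replicates 1 and 3 were the highest, and nicotine replicate 2 lay among the controls. The nicotine mean of 31.3 ± 6.49 CPM (SD, n = 3) stood beside a control mean of 26.4 ± 2.55 CPM (SD, n = 3). On the log2 scale the difference was 0.24 (standard error 0.19, 95% interval -0.17 to 0.66), with an adjusted p of 0.841 in edgeR's quasi-likelihood test.

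Igf2r, the clearance receptor for IGF2, stood at 26.9, 37.1 and 29.8 CPM in the nicotine libraries and at 28.0, 30.6 and 30.1 CPM in the control libraries. Here nicotine replicate 2 was the highest library, whereas it was the lowest for Igf1 and Igf2. Its log2 fold change was 0.08 (standard error 0.17, 95% interval -0.29 to 0.45), and it was -0.07 without nicotine replicate 2.

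Igfbp4, a binding protein that mostly restrains IGF action until the pappalysin proteases cut it, had the smallest p of the 10 genes. It stood at 67.2, 81.8 and 94.8 CPM in the nicotine libraries and at 53.0, 36.8 and 26.7 CPM in the control libraries. Each nicotine library lay above each control library, and the nearest of them were nicotine replicate 1 and control replicate 1. The means were 81.3 ± 13.8 CPM (SD, n = 3) and 38.8 ± 13.3 CPM (SD, n = 3), a ratio of 2.09. The log2 fold change was 1.07 (standard error 0.24, 95% interval 0.541 to 1.595). Its unadjusted p of 0.000978 ranked 21 among 17292 genes in edgeR's quasi-likelihood test, and after adjustment p was 0.702. DESeq2 gave the same log2 fold change of 1.07 (standard error 0.25) with an adjusted p of 0.0166. The exact two-sided permutation test gave p = 0.1, the smallest that 3 against 3 libraries allow. Leaving out any 1 library kept the change between 0.86 and 1.36. The DESeq2 call was lost without nicotine replicate 3 (adjusted p = 0.108), without control replicate 2 (0.155) and without control replicate 3 (0.196), and was kept without each of the others.

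Igfbp6, which binds IGF2 in preference to IGF1, was the gene with the widest range of the 10. It stood at 41.8, 15.8 and 58.9 CPM in the nicotine libraries and at 68.5, 109 and 111 CPM in the control libraries. Each nicotine library lay below each control library, nicotine replicate 2 was far below the others, and the highest library was 7.06 times the lowest. The means were 38.8 ± 21.7 CPM (SD, n = 3) and 96.4 ± 24.3 CPM (SD, n = 3). The log2 fold change was -1.32 (standard error 0.38, 95% interval -2.16 to -0.48). edgeR's quasi-likelihood test gave an unadjusted p of 0.00549, rank 103, and an adjusted p of 0.760, and DESeq2 gave -1.32 (standard error 0.35) with an adjusted p of 0.0575. The spread within groups was at the 94.0th percentile of all genes tested. Without nicotine replicate 2 the log2 fold change was -0.95 and without nicotine replicate 3 it was -1.75. The DESeq2 call was lost without nicotine replicate 1 (adjusted p = 0.480), control replicate 2 (0.324) or control replicate 3 (0.50).

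Igfbp2, a binding protein abundant in fetal tissue, brain and cerebrospinal fluid, stood at 213, 342 and 208 CPM in the nicotine libraries and at 206, 105 and 61.5 CPM in the control libraries. Control replicate 1 lay directly under the nicotine libraries, and nicotine replicate 2 was the highest of all. The means were 254 ± 75.8 CPM (SD, n = 3) and 124 ± 74.2 CPM (SD, n = 3), a ratio of 2.04, and the highest library was 5.55 times the lowest. Nicotine minus control was 1.03 on the log2 scale (standard error 0.37, 95% interval 0.22 to 1.85). Its unadjusted p in edgeR's quasi-likelihood test was 0.0174, rank 389, and the adjusted p was 0.771, against an adjusted p of 0.263 in DESeq2. The size turned on the controls: it was 1.61 without control replicate 1 and 0.72 without control replicate 3. DESeq2 called Igfbp2 in 1 of these settings, without control replicate 1 (adjusted p = 0.00088).

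Igfbp3, the main carrier of IGF1 in serum, stood at 14.4, 27.2 and 15.6 CPM in the nicotine libraries and at 14.8, 13.9 and 9.35 CPM in the control libraries. The groups overlapped, with nicotine replicate 2 well above the rest and control replicate 3 below. For Igfbp3 the log2 fold change was 0.59 (standard error 0.27), with an unadjusted p of 0.0511 and an adjusted p of 0.807 in edgeR's quasi-likelihood test. Without nicotine replicate 2 it was 0.24. Igfbp3 had the lowest count of the 10 genes in a single library, 354, for which counting alone gives an error of 5.31%.

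Igfbp5, a binding protein that attaches to extracellular matrix, stood at 199.8, 144 and 275 CPM in the nicotine libraries and at 160.4, 265 and 195.9 CPM in the control libraries. The group means of 206.3 ± 65.7 CPM (SD, n = 3) and 207.0 ± 52.9 CPM (SD, n = 3) were close and the ranges overlapped almost whole. A log2 fold change of -0.01 was found, with a 95% interval of -0.56 to 0.55. In the RefSeq annotation Igfbp2 and Igfbp5 are each other's nearest gene, and their values by library did not follow the same order.

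Igfbp7, a binding-protein relative that binds IGFs weakly and is abundant in blood vessels, stood at 119, 102 and 161 CPM in the nicotine libraries and at 112, 114 and 113 CPM in the control libraries. The controls were almost the same, at 113 ± 1.04 CPM (SD, n = 3), and lay inside the nicotine range of 128 ± 30.2 CPM (SD, n = 3). The difference came to 0.17 on the log2 scale (standard error 0.18, 95% interval -0.23 to 0.57), and it was -0.03 without nicotine replicate 3.

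**Figure D2:**
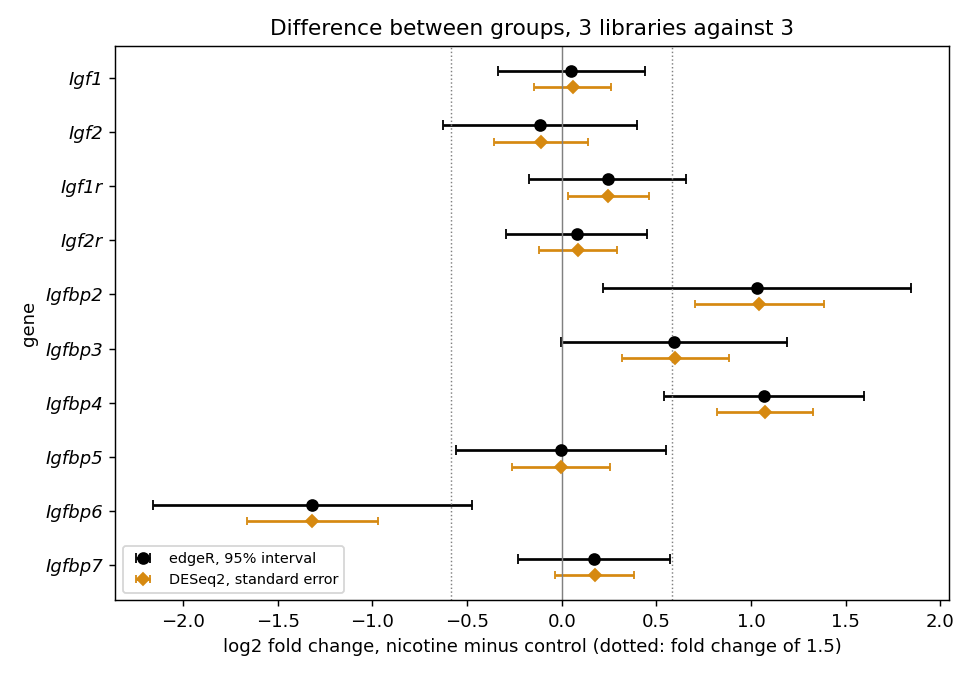
Log2 fold change of each gene, nicotine minus control, with the 95% interval from edgeR (black) and the standard error from DESeq2 (orange), and dotted lines at a fold change of 1.5 in either direction. The edgeR intervals of Igfbp2, Igfbp4 and Igfbp6 leave out 0, and those of the other 7 genes hold it.

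**Figure D3:**
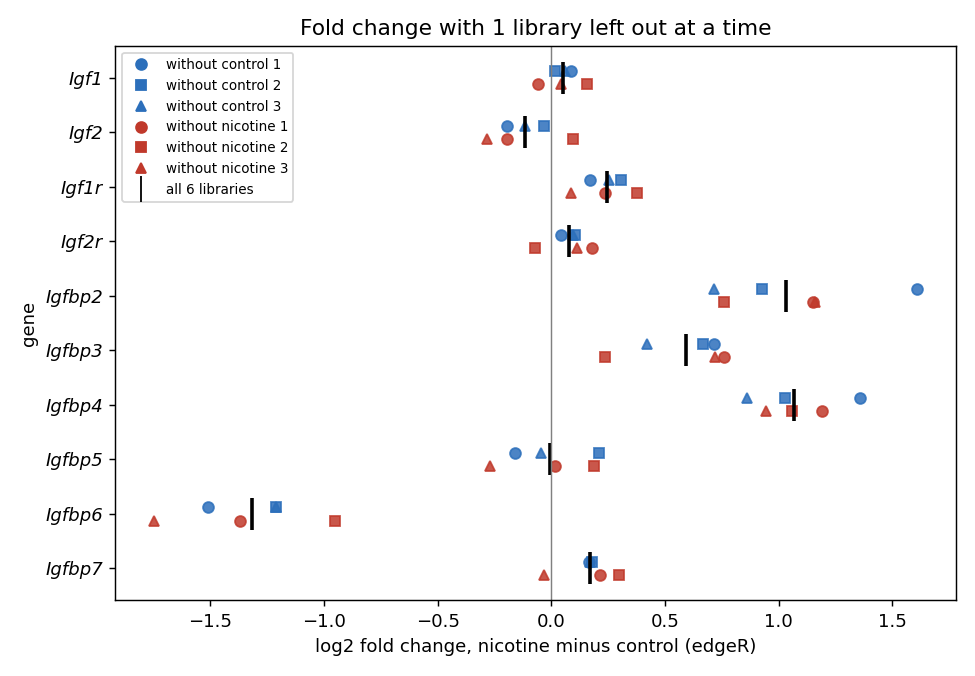
Log2 fold change in edgeR when each library is left out in turn (blue circles, squares and triangles for control replicates 1, 2 and 3, red for nicotine replicates) and with all 6 libraries (black bar). Igfbp2, Igfbp4, Igf1r and Igfbp3 stay above 0 and Igfbp6 below it throughout, while Igf1, Igf2, Igf2r, Igfbp5 and Igfbp7 change side.

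The RefSeq spans of 5 of the 10 genes (Igf2, Igf1r, Igf2r, Igfbp4 and Igfbp7) overlap another annotated gene, among them Polr2b at Igfbp7 and Mir483 inside Igf2. The library kit marks strand, but the strand setting of the counting is not given in the sources used here, so how reads in such overlaps were split is not known. Igfbp2, Igfbp3, Igfbp5, Igfbp6 and Igf1 have no overlapping gene in that annotation.

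Other carriers, proteases and insulin relatives were given by a list of 22 genes, of which 21 were in the tables and 16 were tested. Pappa, the protease that cuts IGFBP4, was not analysed here. In edgeR 8 were higher and 8 lower and 0 were called, and DESeq2 also called 0. An unadjusted p under 0.05 in edgeR was found for 1 of the 16, against 6.14% of all genes. That gene was Igfbpl1, a binding-protein-like gene, at 10.2, 9.48 and 11.4 CPM in the nicotine libraries and at 7.72, 8.40 and 5.79 CPM in the control libraries, with a log2 fold change of 0.50 (standard error 0.21) and an adjusted p of 0.806. The groups did not overlap for it, the only such gene of the 16, against 11.3% of all genes. Pappa2, a protease that cuts IGFBP3 and IGFBP5, stood at 49.2 ± 22.0 and 46.2 ± 11.5 CPM (SD, n = 3 each, nicotine first). Ide, the insulin-degrading enzyme, stood at 42.6 ± 12.5 and 39.4 ± 3.85 CPM (SD, n = 3 each).

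Ins2, an insulin gene and the nearest gene to Igf2, was counted in every library, at 52.7, 27.6 and 45.4 CPM in the nicotine libraries and at 74.3, 47.6 and 47.5 CPM in the control libraries. Nicotine replicate 2 was the lowest, as for Igf2, and the groups overlapped (log2 fold change -0.43, standard error 0.25). Ins1, the other rat insulin gene, had 1 count in 1 library and 0 in the others. Igfbp1, the liver binding protein next to Igfbp3, had 0 or 1 counts in each library, and Igfals, the acid-labile subunit of the serum IGF complex, had 1 to 6. These 3 genes were chosen after their values were seen.

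Receptor signaling was given by 36 genes, all tested, of which 24 were higher and 12 lower with a median log2 fold change of 0.06. 0 were called by edgeR and 0 by DESeq2. An unadjusted p under 0.05 in edgeR was found for 3 of the 36, against 6.14% of all genes. The groups did not overlap for 5 of the 36, against 11.3% of all genes. The 3 genes at such a p are described next. Grb14, an adaptor that inhibits insulin receptor signaling, stood at 23.2, 15.0 and 19.6 CPM in the nicotine libraries and at 26.4, 28.4 and 26.0 CPM in the control libraries (log2 fold change -0.49, standard error 0.19, unadjusted p = 0.0254 and adjusted p = 0.798 in edgeR's quasi-likelihood test). Its nicotine libraries all lay below its control libraries. Pik3r1, a regulatory subunit of phosphoinositide 3-kinase, stood at 35.9, 32.04 and 34.8 CPM against 22.9, 30.1 and 26.0 CPM. Tsc2, which restrains mTOR complex 1 through RHEB, stood at 30.57, 39.2 and 37.04 CPM against 24.0, 27.7 and 30.51 CPM. Each nicotine library of both genes lay above each control library, though for Tsc2 only by nicotine replicate 1 against control replicate 3. The 3 most abundant genes of the list overlapped between the groups: Irs4, a receptor substrate, stood at 305 ± 71.1 and 256 ± 5.85 CPM, Rheb at 197 ± 41.7 and 238 ± 23.5 CPM, and the kinase gene Akt1 at 187 ± 19.3 and 178 ± 11.8 CPM (SD, n = 3 each, nicotine first).

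The growth hormone axis was given by 14 genes, all tested, of which 8 were higher and 6 lower. 0 were called by edgeR and 0 by DESeq2. Gh1 stood at 52429, 115788 and 86557 CPM in the nicotine libraries and at 72086, 69810 and 52651 CPM in the control libraries, with a log2 fold change of 0.39 (standard error 0.82) in edgeR. DESeq2 gave 0.40 with a smaller standard error of 0.27. The nicotine values of Gh1 lay on both sides of the controls. Pou1f1, the transcription factor of somatotrophs, lactotrophs and thyrotrophs, stood at 341 ± 73.7 and 291 ± 35.6 CPM, and Ghrhr, the receptor for growth hormone-releasing hormone, at 44.4 ± 23.0 and 31.5 ± 9.50 CPM (SD, n = 3 each, nicotine first). Socs3, a feedback inhibitor of cytokine receptor signaling, had an unadjusted p of 0.0329 in edgeR's quasi-likelihood test, at 13.98, 10.8 and 10.4 CPM against 26.5, 17.0 and 12.1 CPM, with overlapping groups.

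Whole glands hold more than hormone cells, and the levels of markers of other cell types are given beside the binding proteins, with no test of the lists. Of 10 fibroblast markers 9 were lower after nicotine, 7 of them at an unadjusted p under 0.05 in edgeR (6.14% of all genes in either direction), and 1 was higher at such a p, Fbln2, at 9.45 ± 3.30 against 4.70 ± 2.16 CPM (SD, n = 3 each). The summed level of the list was 530, 367 and 604 CPM in the nicotine libraries, against 693, 932 and 761 CPM in the control libraries. Among them Dcn (decorin) stood at 233, 101 and 246 CPM against 339, 430 and 284 CPM, and Col1a2 at 89.0 ± 9.55 against 126 ± 36.7 CPM (SD, n = 3 each). Nicotine replicate 2 was the lowest library for this sum and for Igfbp6. As a percent of the fibroblast sum Igfbp6 was 7.88, 4.30 and 9.75 in the nicotine libraries, against 9.88, 11.7 and 14.6 in the control libraries. The ratio of means was 0.605, against 0.402 for its CPM. By this measure nicotine replicate 3 (9.75) and control replicate 1 (9.88) almost met, so the groups only just failed to overlap.

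Of 16 meningeal and arachnoid markers 13 were lower, 6 of them at an unadjusted p under 0.05 in edgeR (6.14% of all genes in either direction). At such a p 1 was higher, Fmod, at 21.7 ± 10.3 against 13.2 ± 3.81 CPM (SD, n = 3 each). The sums of the list were 261 to 768 CPM after nicotine and 653 to 757 CPM in controls. The most abundant, Ptgds and Mgp, stood at 202 ± 131 and 291 ± 25.9 CPM and at 125 ± 64.5 and 118 ± 27.1 CPM (SD, n = 3 each, nicotine first). As a percent of this sum Igfbp6 was 8.46, 6.05 and 7.66 in the nicotine libraries, against 10.4, 14.5 and 17.1 in the control libraries. Igf2 as a percent of it was 3.35, 3.84 and 2.37 against 2.16, 2.37 and 2.48. Nicotine replicate 2, the lowest library for Igf2 in CPM, was thus the highest by this measure. On average Ptgds and Mgp weigh most in the meningeal sum, with ratios of group means of 0.696 and 1.06. Over the 16 markers these ratios ran from 0.403 for Cldn11 to 1.64 for Fmod, against 0.402 for the Igfbp6 CPM. Cldn11, which DESeq2 called, stood at 36.1, 28.9 and 55.8 CPM in the nicotine libraries, against 70.1, 126 and 103 CPM in the control libraries. Fbln2, Fmod, Cldn11 and the pairs of a gene and a marker sum were chosen after values were seen, and the part of these cell types in the differences was not tested beyond these values.

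Of 10 pituicyte and posterior lobe markers 9 were higher after nicotine, 5 of them at an unadjusted p under 0.05 in edgeR (6.14% of all genes in either direction). The 1 lower marker was Gfap, at 4.89 ± 0.969 against 7.53 ± 6.34 CPM (SD, n = 3 each). The sums of the list were 293, 539 and 415 CPM in the nicotine libraries, against 329, 298 and 242 CPM in the control libraries. The most abundant were Vim, at 77.3 to 149.5 CPM over all libraries, and the glutamate transporter gene Slc1a3, at 61.3 to 106 CPM. Avp and Oxt, the vasopressin and oxytocin genes, whose RNA is carried in axons of the posterior lobe, varied widely: Avp stood at 35.7, 129 and 33.6 CPM against 32.3, 6.56 and 2.72 CPM, and Oxt at 32.7, 73.9 and 31.6 CPM against 31.2, 13.0 and 2.67 CPM. Both had nicotine replicate 2 highest, control replicate 1 near the remaining nicotine libraries and control replicate 3 lowest, the order of Igfbp2. As a percent of the marker sum Igfbp2 was 72.6, 63.3 and 50.2 in the nicotine libraries, against 62.6, 35.3 and 25.4 in the control libraries, a ratio of means of 1.51 with overlapping groups, against 2.04 without overlap for its CPM. As a percent of the same sum Igfbp4 was 22.9, 15.2 and 22.8 in nicotine libraries, against 16.1, 12.3 and 11.0 in control libraries. The ratio of means was 1.55 with overlapping groups, where its CPM had a ratio of 2.09 and no overlap. Vim, Slc1a3 and Scn7a weigh most in this sum on average, with ratios of group means of 1.07, 1.18 and 1.23. Those of Gfap and Aqp4 were 0.649 and 1.096. Rax, Lhx2, Nkx2-1, Oxt and Avp had ratios of 2.54, 2.35, 2.85, 2.95 and 4.77, above those of Igfbp2 and Igfbp4 in CPM. Whether either gene changed more than the posterior lobe content was not tested. Scn7a, Aqp4, Rax, Lhx2 and Nkx2-1 were chosen after their values were seen.

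All 11 endothelial markers measured were higher after nicotine, 6 of them at an unadjusted p under 0.05 in edgeR (6.14% of all genes in either direction). The sums of the list were 308, 230 and 376 CPM in the nicotine libraries, against 201, 253 and 186 CPM in the control libraries. Plvap stood at 83.4 ± 21.6 against 51.1 ± 8.72 CPM and Kdr at 61.2 ± 13.2 against 44.99 ± 5.54 CPM (SD, n = 3 each). As a percent of this sum Igfbp7 was 38.8, 44.4 and 42.8 in the nicotine libraries, against 55.8, 45.2 and 60.8 in the control libraries. The ratio of means was 0.779, while its CPM was 1.13 times the control mean. The groups did not overlap, but only by nicotine replicate 2 (44.4) against control replicate 2 (45.2). Igfbp3 as a percent of it was 4.67, 11.8 and 4.15 against 7.33, 5.47 and 5.03, with overlap. Apart from nicotine replicate 2, the nicotine values of Igfbp3 by this measure lay below all control values.

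**Figure D4:**
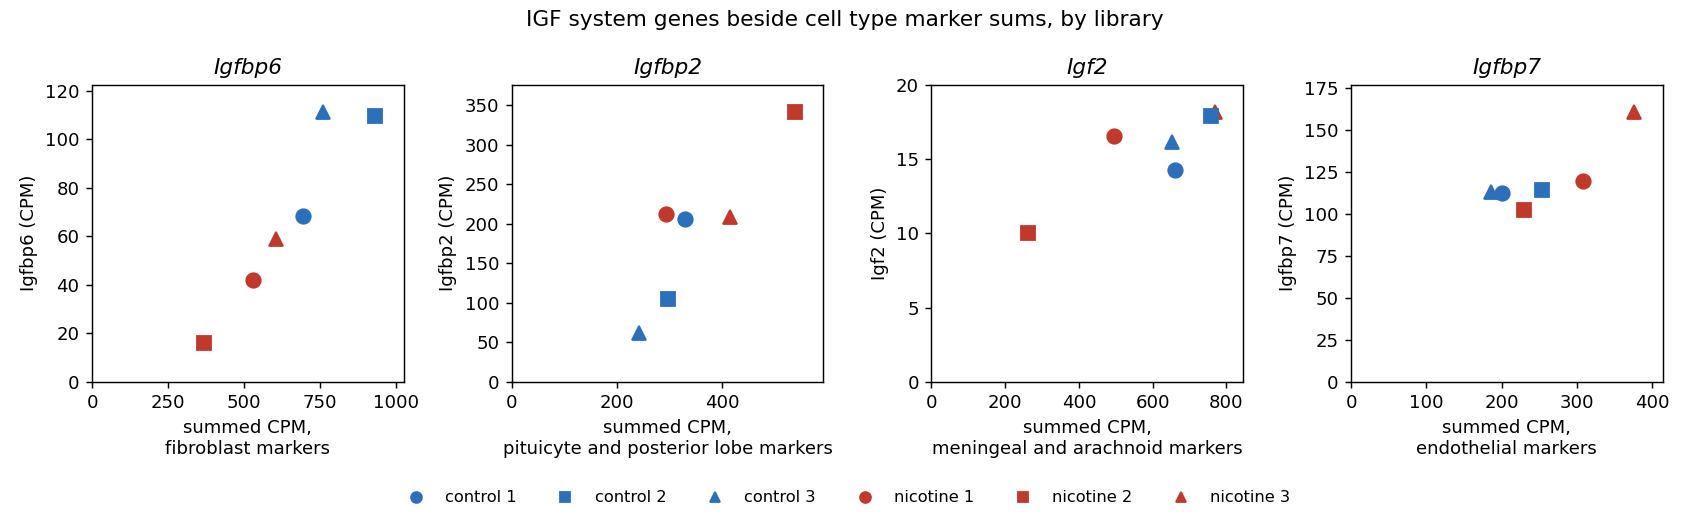
CPM of Igfbp6, Igfbp2, Igf2 and Igfbp7 (vertical axes) beside the summed CPM of a marker list (horizontal axes), 1 symbol per library, all axes linear from 0. Nicotine replicate 2 (red square) has the lowest Igfbp6 and fibroblast sum, the lowest Igf2 and meningeal sum, and the highest Igfbp2 and pituicyte sum.

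Of all these marker genes edgeR called 0, and DESeq2 called 1 meningeal, 2 smooth muscle and 1 blood marker. Hormone cell markers, mostly Gh1, Pomc and Prl, summed to 114000 to 177000 CPM after nicotine and 146000 to 160000 CPM in controls. Of the 10, 2 were higher at an unadjusted p under 0.05, both gonadotroph genes chosen after their values were seen: Lhb (luteinizing hormone beta) at 215.5, 820 and 223 CPM against 154, 75.6 and 125 CPM, and Nr5a1 at 13.6, 32.9 and 12.95 CPM against 11.6, 11.5 and 12.6 CPM. Neither overlapped between the groups, and nicotine replicate 2 was far above the rest for both. Next, folliculostellate and stem cell markers (led by Aldh1a1 and Aldoc) summed to 461 to 640 and 472 to 523 CPM. Of these 10, 1 was higher at an unadjusted p under 0.05 in edgeR. All 12 smooth muscle and pericyte markers (led by Tagln and Myh11) were higher after nicotine, 6 of them at such a p. Their sums were 74.9 to 252 against 65.8 to 82.0 CPM. All 10 macrophage and leukocyte markers (led by C1qa and C1qc) were lower, 3 of them at such a p. Their sums were 161 to 330 against 266 to 357 CPM. All 10 blood markers (led by Hba-a1 and Hbb) were lower too, 9 of them at such a p, with sums of 3280 to 10400 against 8700 to 17400 CPM. Over all genes tested 6.14% had such a p, in either direction.

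The genes most like the 3 most variable of the 10 were found by Pearson's r of log2 CPM over the 6 libraries, given as a description without a test, since all points share their libraries and depths. The most like Igfbp6 were Meox2 (r = 0.999), LOC108350287 (0.996), Nfyb (0.995), Mrc1 (0.991), a macrophage receptor gene, and Adra2a (0.990). For Igfbp2 they were Atp13a4 (0.995), Avp (0.995), LOC108352348 (0.989), LOC100365008 (0.989) and Oxt (0.986). For Igfbp4 they were Zfp385b (0.995), Erbb4 (0.991), the gene of a neuregulin receptor, Gnb2 (0.985), Kif5a (0.984) and LOC680385 (0.984). Other genes came close: 68, 56 and 39 of 17292 genes had r over 0.95 with Igfbp6, Igfbp2 and Igfbp4.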

How the data were processed

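Pituitary RNA of 6 rats (3 nicotine, 3 control) was sequenced. Per the labels and the submitters' processing notes, reads were demultiplexed with bcl2fastq 2.20.0.422, mapped to rn7 with HISAT2 2.1.0 and assigned to genes with featureCounts. The authors deposited whole-number counts per gene symbol, without normalization. Strand setting, pair counting and multimapping reads are not given in the sources used here. The 10 genes, the gene lists and the tests were chosen with earlier results of these data known.

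In R 4.3.3, counts were filtered with filterByExpr (17292 of 24546 symbols with a count), scaled by TMM (factors 0.957 to 1.07) and compared with edgeR 4.0.16 (quasi-likelihood test, no covariate, bias-adjusted fit) over all genes, with Benjamini-Hochberg adjustment. The common biological coefficient of variation was 23.6%. DESeq2 1.42.0, RLE factors, library sizes alone, no filter, removal of genes above 1% of a library's counts, a replicate block and omission of each library were alternatives. edgeR's older fit was chosen after seeing the data. log2 CPM used a prior count of 2. The procedure was tested on simulated data. For each of the 10 genes an exact permutation test (two-sided) was added, whose smallest p over 10 groupings is 0.1. Totals ran from 28318383 to 85977002 counts, and counting error was at most 5.31% for these genes.

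Genes named were all 10, the 3 most abundant and up to 5 with the smallest unadjusted p under 0.05 of each pathway list, the 2 most abundant of each marker list and any marker at 0, and the 5 most like each of the 3 most variable genes. Others are said to be chosen after their values were seen.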

Additional observations from a re-analysis of the deposited data

How the results depend on the processing

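edgeR called 0 of the 10 genes under every alternative, with RLE factors, library sizes alone, no filter, abundant genes left out, the replicate block, the older fit and each library left out. DESeq2 called 2, and with 1 library left out at a time it called 0 to 3. It called 1 without nicotine replicate 1 (Igfbp4) and 1 without nicotine replicate 3 (Igfbp6), 2 without nicotine replicate 2, 3 without control replicate 1 (Igfbp2, Igfbp4, Igfbp6), and 0 without control replicate 2 or control replicate 3. Pathway genes gave 0 calls in every setting. For the fold changes of single genes, 165 values under an alternative kept direction and side of the threshold, 9 passed the threshold (all in DESeq2) and 16 changed sign (Igf1, Igf2, Igf2r, Igfbp5 and Igfbp7). The log2 fold change of Igfbp5 became 0.0267 with library sizes alone, 0.00426 with no filter, 0.0175 without nicotine replicate 1, 0.186 without nicotine replicate 2 and 0.211 without control replicate 2 (DESeq2: 0.0148, 0.193 and 0.218). That of Igf1 became -0.0597 without nicotine replicate 1 (DESeq2 -0.058), that of Igf2 0.0963 without nicotine replicate 2 (DESeq2 0.105), that of Igf2r -0.0731 without nicotine replicate 2 (DESeq2 -0.0659) and that of Igfbp7 -0.0316 without nicotine replicate 3 (DESeq2 -0.0163). With 1 library left out, the log2 fold changes in edgeR reached from -0.0597 to 0.157 for Igf1, -0.285 to 0.0963 for Igf2, -0.268 to 0.211 for Igfbp5 and -0.0316 to 0.298 for Igfbp7, and from -0.0731 to 0.177 for Igf2r. The cause was not tested. edgeR's adjusted p ranged from 0.372 to 0.872 for Igfbp4, 0.256 to 0.944 for Igfbp6 and 0.542 to 0.957 for Igfbp2 over its alternatives. The groups share replicate numbers, and deviations of same-numbered libraries from their group means correlated at 0.026, -0.20 and -0.078. With 3 libraries per group these values cannot settle whether the numbers pair the samples. The replicate block gave 0 calls among the 10 genes, with log2 fold changes of 1.11 for Igfbp4, 1.18 for Igfbp2 and -1.45 for Igfbp6. Where a library was left out of a group, the spread was pooled over the rest. A level order of the genes per length, with its alternatives, was not run because transcript lengths were not used here. The lowest depth, 28318383 counts, belonged to control replicate 1, and each gene had at least 354 counts in every library.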
